A study of Mus musculus with 14 samples.

Results

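Left ventricles of sham-operated male C57Bl/6N mice were compared with those of sham-operated male C57Bl/6J mice on 6 Illumina expression arrays, 3 per substrain. The arrays were chosen by the source label alone, out of 14 in the series. The other 8 arrays came from ventricles of mice given angiotensin II for 48 h by subcutaneous osmotic mini-pump, 4 of each substrain. They entered here only through the shared estimate of spread and as a second, separate set of arrays in which the same substrain difference could be read. The labels name no engineered allele in either substrain, and no age is given there. Whether each array stands for its own mouse is not stated, so the p-values rest on a spread between samples that may be technical. Replicate numbers are names in accession order and link no arrays.

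C57Bl/6J and C57Bl/6N descend from 1 inbred colony and were bred apart at different institutions, so they share nearly all of their genome and differ by mutations that arose in each line. The best known is a deletion in Nnt of C57Bl/6J, which removes the mitochondrial transhydrogenase that makes NADPH for peroxide removal. C57Bl/6N carries mutations in Crb1, a polarity gene of the retina, and in Cyfip2, an actin regulator. A comparison of sham hearts asks which transcripts differ before a load such as angiotensin II is applied.

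Of the transcripts tested in sham hearts, 2 differed between the substrains. Rab4a, a small GTPase of early endosomes that returns receptors to the cell surface, was higher in C57Bl/6N. Entpd4, a nucleoside diphosphatase of the Golgi and lysosomes, was lower. These were 2 of the 9408 genes tested (0.0213%) at an adjusted p under 0.05 in limma, 1 in each direction (0.0106% each). At an unadjusted limma p under 0.05 there were 717 genes (7.62%), 395 of them higher in C57Bl/6N (4.2%) and 322 lower (3.42%). The 3 arrays of one substrain lay wholly above or below the 3 of the other in 1491 genes (15.8%), 775 higher (8.24%) and 716 lower (7.61%).

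Most differences were small beside their error. The median absolute difference over the tested genes was 0.11 on the log2 scale, against a median standard error of 0.14. A difference of at least 0.5 was found in 205 genes and of at least 1, a doubling, in 13, of which 6 were higher in C57Bl/6N and 7 lower. Correlations of the log2 intensities ran from 0.993 to 0.995 among the C57Bl/6J sham arrays, from 0.985 to 0.993 among the C57Bl/6N sham arrays and from 0.982 to 0.994 between substrains.

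One array stood apart. C57Bl/6N sham 1 lay over 1 log2 unit from both other C57Bl/6N sham arrays in 56 genes, against 1 to 15 genes for the other 5 sham arrays. The first principal component of the 6 arrays, with 43.8% of their variance, separated it (24.7) from the others (-13.1 to 2.64). The median of 29 tested cytosolic ribosomal protein genes was -0.41 on C57Bl/6N sham 1, with each gene centred on its 6-array mean, and 0.14 and 0.08 on the other C57Bl/6N arrays. That of 10 atrial markers was -0.43 there, and 0.21 and 0.10 on the others. On the C57Bl/6J sham arrays the atrial median was 0.37, -0.02 and -0.07, so C57Bl/6J sham 1 lay apart in the other direction. On C57Bl/6N sham 1, 48.2% of rows were detected, within the range of 46.4% to 48.2% over the 6 sham arrays. Values without C57Bl/6N sham 1 are given below for many of the lists and for some of the genes it moved. A gene printed without such a value, such as Retnla or Serpina3n, may have moved as well. Without C57Bl/6N sham 1, 2.76% of all genes tested were higher and 2.67% lower at an unadjusted limma p under 0.05. Of 12 cardiomyocyte markers 11 had a row, and each of these 11 was above background on 6 of 6 sham arrays. Their median substrain difference was 0.06, and 0.0049 without C57Bl/6N sham 1. Of 22 lymphocyte markers 17 had a row and only 2 were tested, so these arrays say little about lymphocytes.

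Rab4a had normalised log2 intensities of 6.86, 6.80 and 6.82 on the C57Bl/6J sham arrays and 8.49, 8.56 and 8.67 on the C57Bl/6N sham arrays. All 3 C57Bl/6N arrays lay far above all 3 C57Bl/6J arrays, and the spread within each substrain was small beside the gap. The means were 6.83 ± 0.034 and 8.57 ± 0.090 (SD over 3 arrays). The difference was 1.74 ± 0.18 (SE; 95% interval 1.37 to 2.12), or 3.35-fold, with an adjusted p of 0.000562 in limma. The deposited intensities, before any background step, were 168, 172 and 148 against 466, 393 and 409. The gene was above background on every one of the 14 arrays. With background inferred from all rows the difference was 0.73, and it passed there too. The files hold no probe sequence, so whether the Rab4a probe spans a substrain variant was not tested.

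Under angiotensin II, Rab4a gave nearly the same difference in other arrays. The values were 5.88, 6.70, 6.59 and 6.60 in C57Bl/6J and 8.16, 8.29, 8.01 and 8.44 in C57Bl/6N, a difference of 1.78 ± 0.15 (adjusted p = 3.21e-05 in limma). C57Bl/6J angiotensin II 1 was the low value there, and the groups stayed apart with or without it. The sham difference and the angiotensin II difference were not told apart by the interaction term (difference 0.035 ± 0.23, adjusted p = 0.950).

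Entpd4 had values of 12.26, 12.41 and 12.40 in C57Bl/6J sham hearts and 11.75, 11.59 and 11.49 in C57Bl/6N sham hearts. It is a bright transcript in both, and the groups did not overlap. It was lower in C57Bl/6N by 0.74 ± 0.11 on the log2 scale, 1.67-fold, with an adjusted p of 0.0306 in limma. The angiotensin II arrays showed the same order, 12.14, 12.09, 12.20 and 12.38 in C57Bl/6J against 11.10, 11.33, 11.25 and 11.36 in C57Bl/6N (difference -0.94 ± 0.095, adjusted p = 9.63e-05). The call in sham hearts was a narrow one. With the 6 sham arrays fitted alone the same difference had an adjusted p of 0.162, and the call was lost without any one of 8 arrays: C57Bl/6J sham 1, 2 or 3, C57Bl/6N sham 2 or 3, C57Bl/6J angiotensin II 3, or C57Bl/6N angiotensin II 2 or 3 (adjusted p 0.0658 to 0.216). The difference itself ran only from -0.81 to -0.68 as each of the 14 arrays was left out. The RefSeq gene table of GRCm38.p6 lists a second copy, Entpd4b, for which the array table has 0 rows, and the files hold no probe sequence, so which copy the row measures was not tested.

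**Figure D1:**
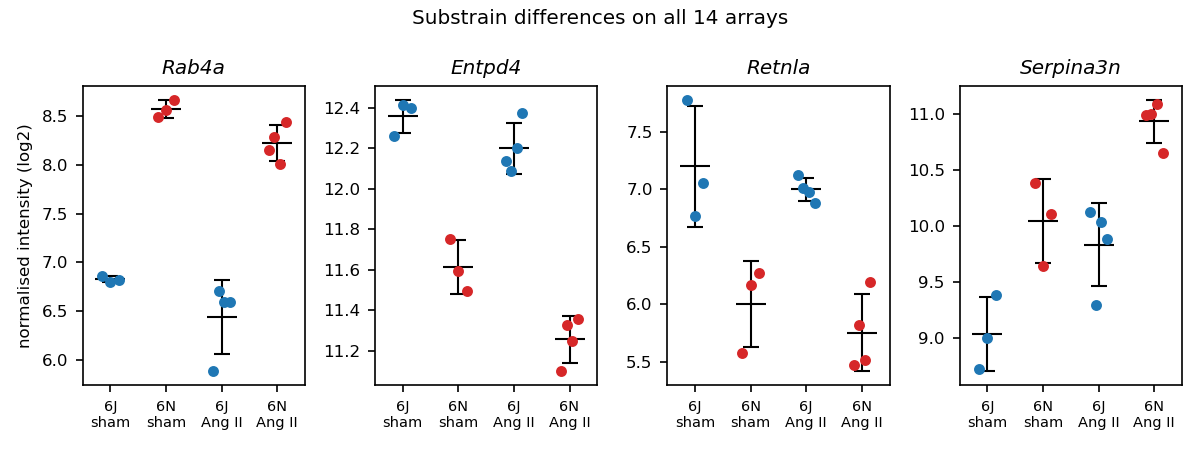
Normalised log2 intensity of Rab4a, Entpd4, Retnla and Serpina3n on all 14 arrays, by substrain (6J, C57Bl/6J; 6N, C57Bl/6N) and treatment. Points are arrays, horizontal lines are group means and bars are 1 SD. The intensity axes differ between panels and do not start at 0. The 3 C57Bl/6N sham arrays lie at 8.49 to 8.67 for Rab4a, above 6.80 to 6.86 in C57Bl/6J, and at 11.49 to 11.75 for Entpd4, below 12.26 to 12.41.

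The 9 further genes with the lowest p among those higher in C57Bl/6N, and the 9 among those lower, did not pass the test. Their adjusted p in limma ran from 0.129 to 0.190. In each of these 18 genes the 3 arrays of one substrain lay beyond the 3 of the other, as did 15.8% of all genes tested, and the choice by p makes such separation likely.

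Among the 9 that lay higher, Pdia4, Hsp90b1 and Xbp1 belong to the endoplasmic reticulum folding response and are described with that group below. Cdkn1a, which encodes the cell cycle inhibitor p21, and Fkbp5, a cochaperone that restrains the glucocorticoid receptor, are both glucocorticoid-responsive. Cdkn1a read 7.94, 7.84 and 8.30 in C57Bl/6J and 9.53, 8.95 and 8.75 in C57Bl/6N, a difference of 1.05 ± 0.19. C57Bl/6N sham 1 was the highest value, and the difference was 0.82 without it. Fkbp5 read 6.11, 6.22 and 6.07 against 7.18, 6.77 and 6.74, a difference of 0.76 ± 0.16, and again C57Bl/6N sham 1 was the highest. Without it the difference was 0.62.

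Gfpt2 and Hsd17b7 are enzymes. Gfpt2, which commits glucose to hexosamine synthesis, read 8.05, 8.31 and 8.59 in C57Bl/6J and 9.06, 9.43 and 9.48 in C57Bl/6N (difference 1.01 ± 0.18). Hsd17b7, an enzyme of cholesterol synthesis and of steroid reduction, read 9.45, 9.65 and 9.55 against 10.24, 10.09 and 9.96 (difference 0.55 ± 0.10). Klhl32, a kelch-like protein, differed by 0.56 ± 0.11 and Agfg2, a relative of an ArfGAP, by 0.52 ± 0.11.

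Of the 9 that lay lower in C57Bl/6N, 4 are known for roles in signalling or secretion. Retnla encodes a secreted protein of alternatively activated macrophages and fat. It read 7.78, 6.76 and 7.05 in C57Bl/6J and 5.58, 6.17 and 6.27 in C57Bl/6N, a difference of -1.19 ± 0.24, with a wide spread in both groups (SD 0.52 and 0.37). Bmp4, a secreted ligand of the TGF-beta family, read 8.41, 7.93 and 8.02 against 7.19, 7.47 and 7.25 (difference -0.81 ± 0.16). Arrdc4, an arrestin-domain protein that limits glucose uptake, differed by -0.54 ± 0.11, and Rell1, a member of the RELT family of TNF receptor-like proteins, by -0.63 ± 0.13.

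The others that lay lower were Abca8a, a lipid transporter of the ABC family (-0.53 ± 0.12), Smg5, a factor of nonsense-mediated decay (-0.41 ± 0.088), 1190005I06Rik (-0.69 ± 0.15), MGC41689 (-1.10 ± 0.25) and STS. MGC41689 and STS carry the name in the file. STS was above background on 3 of 3 C57Bl/6J and 0 of 3 C57Bl/6N sham arrays and was at least 1.16-fold lower, and Smg5 was above background on 1 of 3 C57Bl/6N sham arrays. MGC41689 read 6.67 on C57Bl/6N sham 1 against 7.89 and 7.74 on the other C57Bl/6N arrays, and differed by -0.71 without that array.

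**Figure D2:**
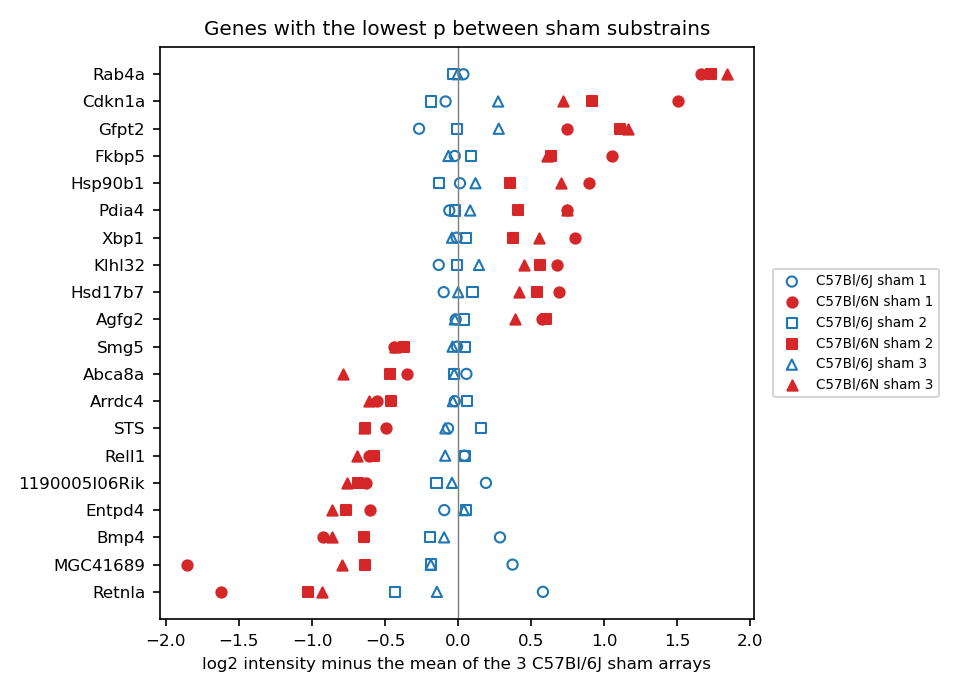
The 10 genes with the lowest p in each direction, sorted by difference, as log2 intensity minus the mean of the 3 C57Bl/6J sham arrays. Open blue symbols are C57Bl/6J and filled red symbols C57Bl/6N sham arrays, with 1 shape per replicate number. Red and blue do not overlap in any row, and Rab4a is the gene with the widest gap. C57Bl/6N sham 1 is the outermost red point for Cdkn1a, Fkbp5, Hsd17b7, Klhl32, Hsp90b1, Xbp1, MGC41689, Retnla and Bmp4. It is so narrowly for Pdia4 and Smg5, and not for Rab4a or Entpd4.

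The angiotensin II differences had the same direction in 18 of these 20 genes (90%). The 20 were chosen by p-values that rest on the spread of all 14 arrays, so this count is a description and no separate check. The corresponding share was 55.6% for the 717 genes at an unadjusted p under 0.05 in sham and 47.3% for all 9408. Under angiotensin II, 870 genes differed between substrains at an adjusted p under 0.05 in limma (9.25%), 514 higher in C57Bl/6N (5.46%) and 356 lower (3.78%). Of the 20 genes, 9 were among them in the direction seen in sham and 0 in the opposite one. The 5 that were higher in both substrain comparisons were Rab4a, Pdia4 (0.59, adjusted p = 0.00726), Klhl32 (0.40, adjusted p = 0.0190), Hsp90b1 (0.48, adjusted p = 0.0191) and Hsd17b7 (0.31, adjusted p = 0.0403). The 4 that were lower were Entpd4, Retnla (-1.25, adjusted p = 0.00468), Rell1 (-0.47, adjusted p = 0.0224) and MGC41689 (-0.84, adjusted p = 0.0265). Of these 9, only Rab4a and Entpd4 also passed in sham. The count was lower when the sets of arrays were kept apart, with the genes chosen by a fit of the 6 sham arrays and read in a fit of the 8 angiotensin II arrays, a setting added after the data were seen. Of the 20 genes chosen that way, 8 were among the 20 above, 14 had the same direction (70%) and 4 passed in it, Rab4a, Entpd4 and Pdia4 among them. In that fit 2.65% of all genes passed.

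Gfpt2 and STS had the opposite sign under angiotensin II. Gfpt2 differed by -0.42 ± 0.16 there (adjusted p = 0.104), from 9.18, 8.45, 8.73 and 8.90 in C57Bl/6J and 8.28, 8.31, 8.58 and 8.41 in C57Bl/6N, with overlap between the groups. It had the lowest adjusted p of the 20 for the difference between the contrasts, 0.0613, so none of them passed that test, which called 1 gene of 9408 (0.0106%). Across all 9408 genes, which are not independent replicates, the sham and angiotensin II differences had a Pearson correlation of 0.012 and a Spearman correlation of -0.056.

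**Figure D3:**
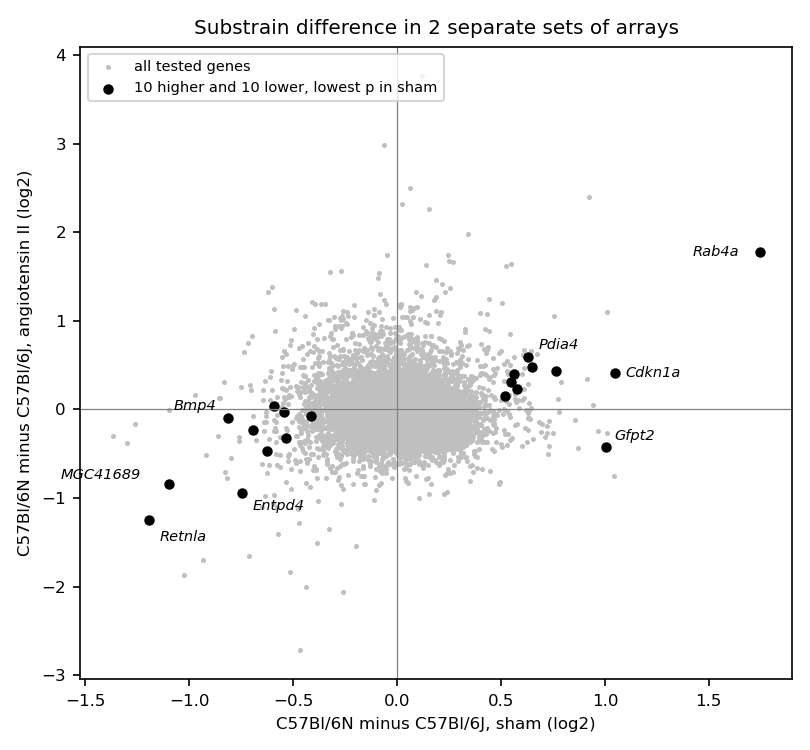
Difference between substrains, C57Bl/6N minus C57Bl/6J, in sham hearts (horizontal axis) and under angiotensin II (vertical axis), both log2. Grey points are the 9408 tested genes and black points the 20 genes with the lowest p in sham, 10 in each direction. The grey cloud has no slope (Pearson 0.012), and 18 of the 20 black points lie in the quadrants of equal sign, with Rab4a at 1.74 and 1.78.

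Genes of the endoplasmic reticulum folding response lay higher in C57Bl/6N sham hearts, though none of them passed the test over all genes. When unfolded protein builds up in the endoplasmic reticulum, the sensors Ire1, Perk and Atf6 raise chaperones and oxidoreductases through Xbp1, Atf4 and Atf6. Cardiac muscle uses this system to fold secreted and membrane proteins. Many of the chaperone genes carry an endoplasmic reticulum stress element in the promoter, a CCAAT box and a CCACG box a fixed distance apart. Of 28 listed genes of this response and of Atf4 targets, 25 had a row and 21 were tested. Of these 21, 18 were detected on at least 3 of the 6 sham arrays. At an unadjusted limma p under 0.05, 10 of the 21 were higher in C57Bl/6N and 0 lower, where 4.2% of all genes were higher and 3.42% lower. The median difference was 0.26, against 0.0060 for all genes tested.

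A motif search shows which of these genes have an exact match to that element near the start. The letters CCAAT, any 9 bases and CCACG were searched on both strands in the RefSeq promoter windows of GRCm38.p6, from 250 bases before to 50 after each gene's start. All 21 tested genes matched a promoter, and 6 of them held the motif, against 37 of 27025 genes (0.137%). Since chaperone genes known for this element are on the list, the larger share follows from its make-up and says nothing about these arrays. The 6 are printed with 20 bases on each side, in the direction of the gene, with the boxes in capitals; CGTGG and ATTGG are the boxes on the other strand.
Hspa5 (chr2:34772005-34772063, plus strand): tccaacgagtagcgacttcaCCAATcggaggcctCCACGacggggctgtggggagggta
Hsp90b1 (chr10:86705513-86705676, minus strand): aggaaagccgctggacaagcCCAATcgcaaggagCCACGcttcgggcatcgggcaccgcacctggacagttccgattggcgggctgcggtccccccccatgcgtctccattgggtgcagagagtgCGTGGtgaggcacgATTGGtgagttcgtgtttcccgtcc
Dnajc3 (chr14:118937807-118937865, plus strand): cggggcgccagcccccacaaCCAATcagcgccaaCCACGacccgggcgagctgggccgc
Pdia6 (chr12:17266471-17266529, plus strand): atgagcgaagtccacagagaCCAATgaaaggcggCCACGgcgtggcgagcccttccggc
Creld2 (chr15:88819500-88819558, plus strand): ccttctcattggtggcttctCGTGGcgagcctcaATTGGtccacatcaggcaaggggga
Calr (chr8:84847055-84847113, minus strand): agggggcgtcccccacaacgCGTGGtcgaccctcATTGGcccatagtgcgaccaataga
Hsp90b1 held 2 matches, 1 on each strand, and the others 1 each. The 6 genes with the motif had differences of 0.19 to 0.65 with a median of 0.52, and the 15 without it of -0.17 to 0.63 with a median of 0.24. Of the 6, 4 had an unadjusted p under 0.05, and of the 15, 6. The 15 include folding genes such as Pdia4 and amino acid genes such as Asns, so the medians compare unlike genes. A match of letters is a description of the window and shows no binding. The search could not find a variant of the element or one outside the window.

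Among the chaperones, Hsp90b1, which encodes the luminal HSP90 paralog GRP94, read 12.05, 11.90 and 12.15 in C57Bl/6J sham hearts and 12.93, 12.39 and 12.74 in C57Bl/6N sham hearts. The groups did not overlap, the lowest C57Bl/6N array was sham 2, and the difference was 0.65 ± 0.13, or 1.57-fold (adjusted p = 0.157 in limma). Without C57Bl/6N sham 1 the difference was 0.53. Hspa5, which encodes the luminal HSP70 protein BiP, read 6.34, 5.72 and 5.16 against 6.77, 5.93 and 6.36. These values lie near background: Agt, not above background on C57Bl/6J sham 3, read 5.24 there, against 5.16 for Hspa5. The Hspa5 difference was of similar size, 0.61 ± 0.32, but the groups overlapped and the unadjusted limma p was 0.0779. Without C57Bl/6N sham 1 the difference was 0.41. Dnajc3, a cochaperone of BiP, read 8.10, 8.31 and 8.55 against 8.96, 8.75 and 8.96 (difference 0.57 ± 0.12, adjusted p = 0.177), with no overlap. Dnajb9, another BiP cochaperone, differed by 0.36 (0.23 without that array), and Calr, the calcium-binding lectin chaperone calreticulin, by 0.19 ± 0.50.

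The disulphide isomerases followed the same order. Pdia4 read 8.51, 8.55 and 8.66 in C57Bl/6J and 9.32, 8.98 and 9.32 in C57Bl/6N (difference 0.63 ± 0.13, 1.55-fold, adjusted p = 0.157), again with C57Bl/6N sham 2 the lowest of its group. Without C57Bl/6N sham 1 the Pdia4 difference was 0.57. Pdia3 differed by 0.47, with 1 array overlapping, and Pdia6 by 0.45 with none. Creld2, a secreted folding factor, differed by 0.47, and Herpud1, which serves degradation of misfolded proteins, by 0.45 (0.29 without C57Bl/6N sham 1).

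The transcription factors split. Xbp1 read 10.49, 10.55 and 10.46 in C57Bl/6J against 11.30, 10.88 and 11.05 in C57Bl/6N (difference 0.58 ± 0.12, adjusted p = 0.157), with no overlap. Its difference was 0.47 without C57Bl/6N sham 1. Atf4 differed by 0.22 and Atf5 by 0.24. Ddit3, which encodes the factor CHOP of the prolonged response, differed by -0.02. Among further Atf4 targets, Asns differed by 0.26, Mthfd2 by 0.12, Phgdh by -0.04, Psat1 by -0.11 and Chac1 by -0.17. Vldlr (0.02) and Trib3 (0.24) complete the 21.

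**Figure D4:**
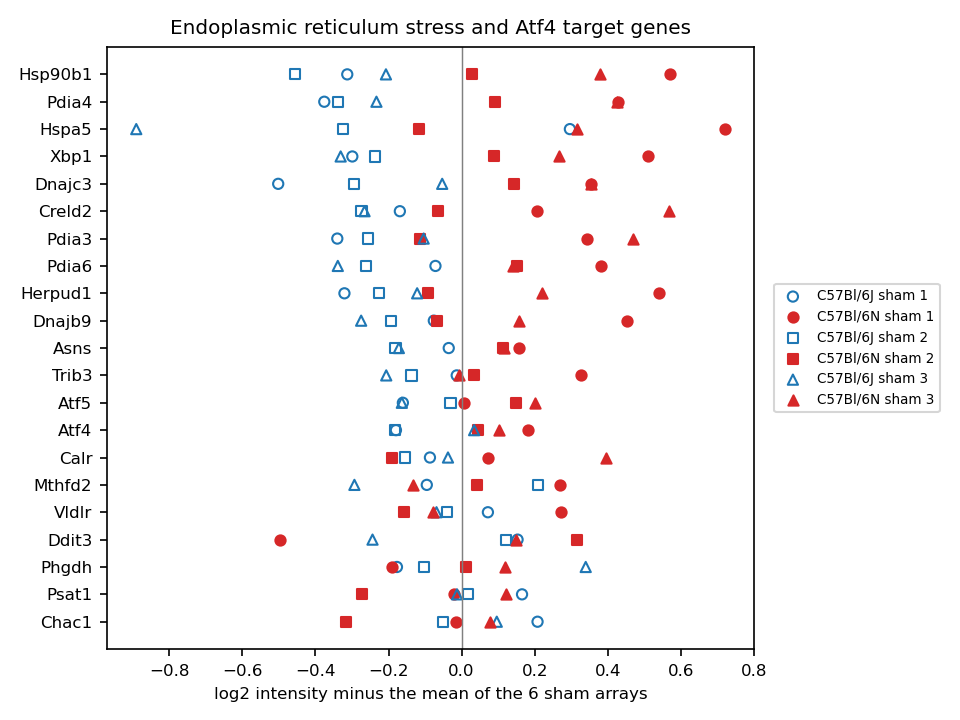
The 21 tested genes of the endoplasmic reticulum stress and Atf4 target list, sorted by substrain difference, as log2 intensity minus the mean of the 6 sham arrays. Open blue symbols are C57Bl/6J and filled red symbols C57Bl/6N. C57Bl/6N arrays lie to the right in most rows at the top, though the groups overlap for Hspa5 and Pdia3, and are mixed with C57Bl/6J at the bottom. C57Bl/6N sham 2 (filled squares) is the leftmost red point in most of the upper rows.

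With each gene centred on its mean over the sham arrays, the median of the 21 genes was -0.10, -0.18 and -0.17 in C57Bl/6J and 0.27, 0.03 and 0.16 in C57Bl/6N. The groups did not overlap, and C57Bl/6N sham 1, the array that stood apart, had the highest value. Without it, 8 of the 21 were higher at an unadjusted p under 0.05, as were 2.76% of all genes, and the median was 0.24. Over the 27 alternative settings that number ran from 7 to 11, with 0 lower in each. Under angiotensin II 4 of the 21 were higher at an adjusted p under 0.05 and 0 lower. The shares over all genes there were 5.46% and 3.78%. The 4 were Pdia4, Hsp90b1, Mthfd2 (0.75) and Psat1 (1.06), and the median of the 21 was 0.22. In sham hearts Mthfd2 and Psat1 differed by 0.12 and -0.11. In bulk tissue, fewer cells of a type and less RNA per cell cannot be told apart, and which cells of the ventricle carried the difference was not tested.

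Complement and acute phase genes, which encode plasma defence proteins made mainly by liver and also by stressed tissue, had a median difference of 0.20. Of 21 tested, 7 were higher at an unadjusted p under 0.05 and 0 lower, where 4.2% of all genes were higher and 3.42% lower, and none passed the test over all genes. Without C57Bl/6N sham 1, 5 were higher and 0 lower, against 2.76% and 2.67% of all genes, and the median was 0.071. With background inferred from all rows the median was 0.049. Serpina3n, a secreted serine protease inhibitor, ranged from 8.72 to 9.39 in C57Bl/6J (mean 9.03) and read 10.39, 9.64 and 10.10 in C57Bl/6N, a difference of 1.01 ± 0.23 (adjusted p = 0.190 in limma). The groups did not overlap, and under angiotensin II it was higher in C57Bl/6N by 1.10 ± 0.20 (adjusted p = 0.00675). C3, the central complement component, read 11.02, 10.95 and 10.97 against 12.21, 11.53 and 11.55 (difference 0.78 ± 0.18), with C57Bl/6N sham 1 well above the rest and a difference of 0.56 without it. Under angiotensin II its difference was -0.03. Hp, which encodes the haemoglobin-binding protein haptoglobin, differed by 0.63, C2 by 0.59 and Cp, the copper carrier ceruloplasmin, by 0.52 in sham hearts. Under angiotensin II the same differences were -0.0021 for Hp, 0.014 for C2 and 0.096 for Cp. Beside these, 6 tested neutrophil markers had a median of 0.18 with 0 at an unadjusted p under 0.05, and 20 macrophage and monocyte markers a median of -0.14, with 1 lower, Csf1r (-0.40). Their part in the result was not tested.

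Glucocorticoid-responsive genes had a median of 0.18 over 22 tested, with 5 higher and 2 lower at an unadjusted p under 0.05, where 4.2% of all genes were higher and 3.42% lower. None passed the test over all genes. The median moved with single arrays. Without C57Bl/6N sham 1 it was 0.041, with 3 higher and 2 lower, against 2.76% and 2.67% of all genes. Without C57Bl/6N sham 3 the median was 0.34. Beside Cdkn1a and Fkbp5 the higher ones were Ddit4, an inhibitor of mTORC1 (0.67), Errfi1, an inhibitor of EGF receptor signalling (0.48), and Map3k6 (0.40). Without C57Bl/6N sham 1 the difference of Errfi1 was 0.26 and that of Map3k6 0.28. The 2 lower ones were Angptl4, a secreted inhibitor of lipoprotein lipase (-1.26), and Pdk4, a brake on pyruvate oxidation (-0.44, and -0.69 without that array). Angptl4 read 9.84, 10.13 and 9.59 in C57Bl/6J and 9.06, 8.67 and 8.05 in C57Bl/6N, without overlap. Its adjusted p was 0.403, since it varied widely within groups. Tsc22d3 (0.20), Sgk1 (0.19) and Klf9 (0.16), which are direct targets of the receptor, did not stand out. The per-array medians of the list were -0.18, -0.17 and 0.01 in C57Bl/6J and 0.37, 0.08 and -0.20 in C57Bl/6N, so the groups overlapped and C57Bl/6N sham 1 was the highest.

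Of 17 circadian genes tested, none passed the test over all genes. At an unadjusted p under 0.05, 4 were lower and 0 higher, where 3.42% of all genes were lower and 4.2% higher, and the median was -0.11. The per-array medians overlapped, with 0.02, 0.04 and 0.06 in C57Bl/6J and 0.08, -0.04 and -0.17 in C57Bl/6N. As each sham array was left out the median ran from -0.21 (without C57Bl/6N sham 2) to -0.0027 (without C57Bl/6N sham 3), and it was -0.16 without C57Bl/6N sham 1. Dbp, a transcription factor that carries the rhythm to its targets, read 10.91, 10.84 and 10.34 in C57Bl/6J and 9.18, 9.86 and 8.95 in C57Bl/6N, a difference of -1.37 ± 0.39 (adjusted p = 0.354 in limma). Nr1d1, the repressor REV-ERB alpha, read 8.75, 8.53 and 8.47 against 7.16, 7.41 and 7.89 (-1.10 ± 0.25, adjusted p = 0.190). Neither gene overlapped between groups. Cry2 differed by -0.48 and Per3 by -0.56, while Arntl, the activator that Nr1d1 represses, differed by 0.46 (unadjusted p = 0.0702) with no overlap. Under angiotensin II the differences of Nr1d1 and Dbp were -0.01 and -0.29, and the groups overlapped for both.

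Genes of the renin-angiotensin and endothelin systems include those through which angiotensin II acts, and none passed the test. Of 14 tested, 4 were higher in C57Bl/6N at an unadjusted p under 0.05 and 1 lower, where 4.2% of all genes were higher and 3.42% lower. The median was 0.13, and 0.038 without C57Bl/6N sham 1. In that setting 2 were higher and 0 lower, against 2.76% and 2.67% of all genes. With background inferred from all rows the median was 0.029, and without C57Bl/6N sham 3 it was 0.23. Agtr1a, the main angiotensin receptor gene of mouse heart, read 10.03, 9.97 and 9.90 in C57Bl/6J against 10.32, 10.23 and 9.81 in C57Bl/6N, with overlap (0.15 ± 0.16, adjusted p = 0.842, and 0.048 without C57Bl/6N sham 1). Ace, which encodes the converting enzyme, differed by -0.40 ± 0.32 (adjusted p = 0.801). Ednra, the endothelin A receptor gene, differed by 0.60 ± 0.19 (adjusted p = 0.456), and Edn1, the endothelin ligand gene, by 0.43. The other 2 lay near background. Agt, the angiotensin precursor gene, was above background on 0 of 3 C57Bl/6J and 1 of 3 C57Bl/6N sham arrays, at least 1.01-fold higher. Lnpep, an aminopeptidase gene, was above background on 0 of 3 C57Bl/6J and 1 of 3 C57Bl/6N sham arrays, and no fold is given. Anpep, another aminopeptidase gene, differed by -0.72.

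Genes of cardiac load did not pass the test in sham hearts. Of 22 tested cardiac stress and fetal genes, 2 were higher at an unadjusted p under 0.05 and 0 lower, against 4.2% and 3.42% of all genes, with a median of 0.07. Without C57Bl/6N sham 1, 5 were higher and 0 lower, against 2.76% and 2.67% of all genes, and the median was 0.12. Myh7, the slow myosin heavy chain gene that adult mouse ventricle re-expresses under load, read 8.63, 8.35 and 8.21 in C57Bl/6J and 8.87, 9.01 and 8.88 in C57Bl/6N. The groups did not overlap, and the difference of 0.53 ± 0.21 did not pass (adjusted p = 0.569). Under angiotensin II it was higher in C57Bl/6N by 1.62 (adjusted p = 0.000329). The natriuretic peptide genes depended on 1 array. Nppa read 13.76, 13.68 and 13.40 in C57Bl/6J and 13.00, 14.35 and 14.43 in C57Bl/6N, where sham 1 was the lowest of all 6 and the other C57Bl/6N arrays the highest. Its difference was 0.31 ± 0.26 (adjusted p = 0.806), and 0.77 without C57Bl/6N sham 1, where it passed (adjusted p = 0.0400). Nppb had the same order of arrays, with 12.81, 12.66 and 12.38 against 11.77, 13.01 and 13.57 (0.17 ± 0.33, and 0.68 without C57Bl/6N sham 1). Without C57Bl/6N sham 1, 4 genes passed in all: Rab4a, Entpd4, Nppa and Has1, a hyaluronan synthase gene.

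Several of the listed genes tied to variation among C57Bl/6 colonies could not be read. Nnt and Crb1 were above background on 0 of the 14 arrays, so they give no check of the substrain labels, and Nlrp12 has no row in the table analysed here. Cyfip2 differed by -0.17 ± 0.23 (adjusted p = 0.888) and Ide, the insulin-degrading enzyme gene, by -0.41 ± 0.23. Wdfy1, an endosomal adaptor of Toll-like receptor signalling, read 5.08, 5.25 and 4.92 in C57Bl/6J and 5.49, 5.42 and 5.54 in C57Bl/6N. It exceeded background on 1 of the 6 sham arrays (unadjusted p = 0.00570). Under angiotensin II it did so on 4 of 4 C57Bl/6N and 0 of 4 C57Bl/6J arrays and passed the test there (adjusted p = 9.29e-05). Of 12 genes on this list 6 were tested, and Entpd4 alone passed in sham, where 0.0213% of all genes did. Under angiotensin II 1 of the 6 passed as higher and 2 as lower, against 5.46% and 3.78% of all genes. On a list of mitochondrial NADPH supply and antioxidant genes, 0 of 13 tested were higher and 1 lower at an unadjusted p under 0.05, against 4.2% and 3.42% of all genes. That gene was Cat, which encodes catalase, an enzyme that breaks down peroxide without consuming NADPH (-0.28 ± 0.10). Idh2 (0.14 ± 0.19) and Prdx3 (0.11 ± 0.12), a mitochondrial NADPH source and a peroxiredoxin, overlapped between substrains.

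No gene of energy metabolism or contraction passed either. Medians were -0.07 for 37 genes of the respiratory chain, 0.06 for 25 of the TCA cycle and ketone use, 0.06 for 30 of fatty acid use, -0.04 for 24 of glycolysis and 0.06 for 19 of the sarcomere. Without C57Bl/6N sham 1 these medians were 0.014, -0.065, -0.031, -0.13 and -0.0071 in the same order, so 4 of the 5 changed sign. At an unadjusted limma p under 0.05 each list had at most 3 genes per direction, where 4.2% of all genes were higher and 3.42% lower. The highest counts were 3 of 25 lower for the TCA cycle and 3 of 19 higher for the sarcomere. Without C57Bl/6N sham 1 these counts were 4 and 1, where 2.67% of all genes were lower and 2.76% higher. Scn4b, a beta subunit of the cardiac sodium channel, was the single gene of 30 on the ion channel list at that level. It read 9.75, 9.48 and 9.32 in C57Bl/6J and 8.26, 8.46 and 9.03 in C57Bl/6N (-0.93 ± 0.24, adjusted p = 0.313) and passed under angiotensin II (-1.70, adjusted p = 0.000819).

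**Figure D5:**
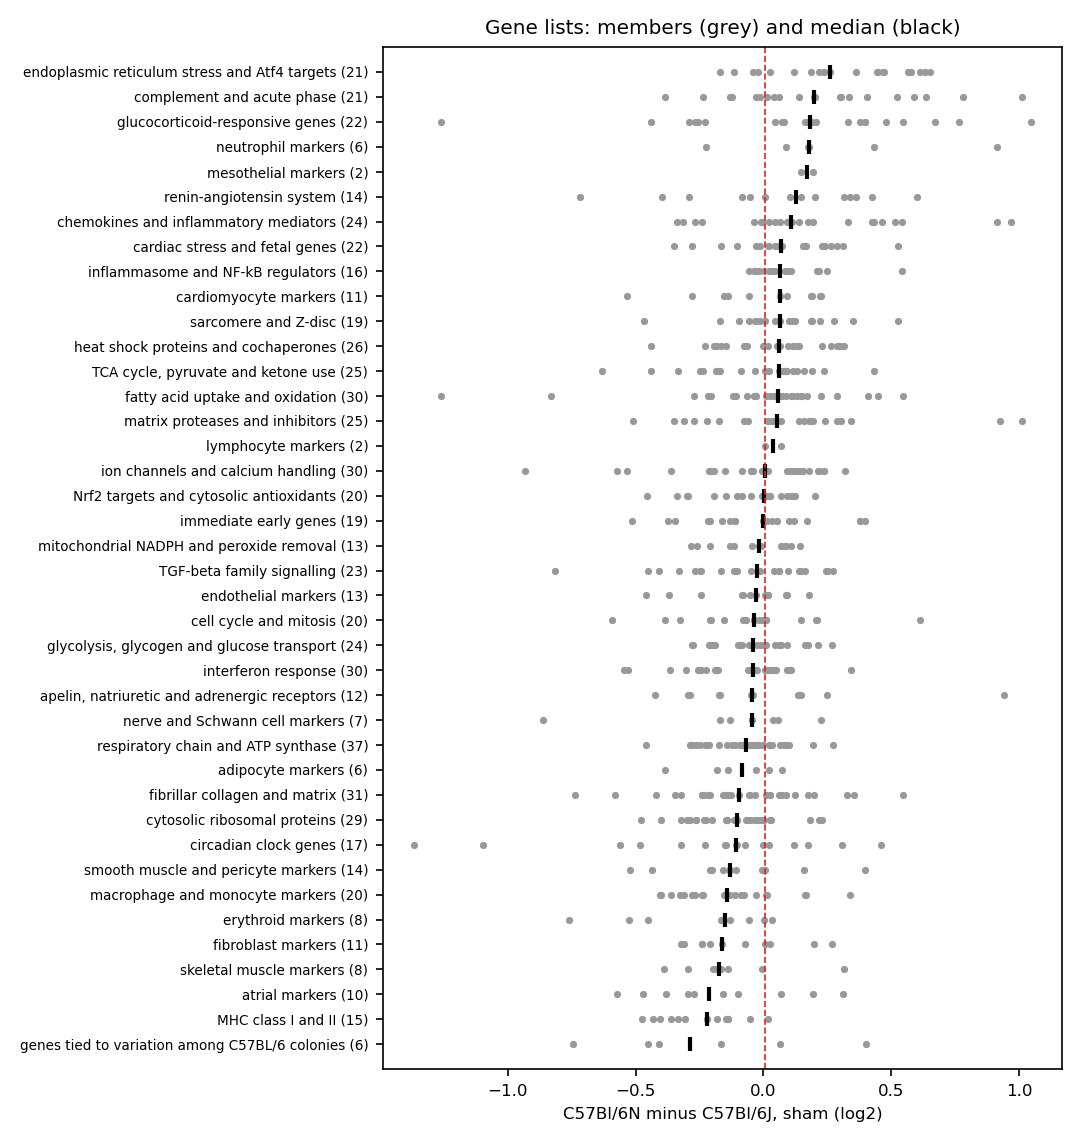
Substrain difference in sham hearts, C57Bl/6N minus C57Bl/6J on the log2 scale, for the tested members of 40 gene lists. Grey points are genes, black ticks list medians, numbers in brackets the tested genes, and the dashed line the median of all tested genes (0.0060). The endoplasmic reticulum stress list has the highest median among lists of over 6 tested genes (0.26), and MHC genes (-0.22) lie near the bottom.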

How the data were processed

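The authors deposited linear signal intensity and detection p-values of 18138 gene rows per array, and a second table of quantile-normalised intensity for 18132 of them, judged from the values. Array model, scanner and genome build: not given in the sources used here. Per the labels' protocols, cRNA was labelled with biotin by an Ambion MessageAmp kit. Rows are gene symbols: 14309 matched a current RefSeq symbol, 2662 an older one, and 1167 keep the file's name.

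With limma 3.58.1 in R 4.3.3, intensities were background-corrected (normal-exponential model), offset by 16, quantile-normalised and put on the log2 scale. No control probes were at hand, so background was inferred from the detection p-values of the 14215 rows on a grid of 798 steps, as the median signal at each step. That estimator replaced limma's own fit to these rows after the data were seen; the first is kept as an alternative. Other rows were taken to combine several probes. The 9408 rows (51.9%) that reached a detection p-value under 0.05 on 3 or more arrays were tested, in 1 fit of 14 arrays with 4 group means (10 residual and 4.80 prior degrees of freedom), by eBayes with Benjamini-Hochberg adjustment. A row counted as above background where its signal reached the lowest detected 1-probe signal of that array. "At least" folds use that floor. The number of arrays limits the precision.

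Named genes are the 2 called, the lowest p up to 10 per direction, 14 fixed genes, and up to 2 per list; further list members were picked after their values were seen. Lists and members were chosen with earlier results of these data known, so counts over a list are descriptions. The deposited dose labels disagree on the time unit, and no dose is printed.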

Additional observations from a re-analysis of the deposited data

Results flagged for a closer look

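Of the 20 genes with the lowest p in sham hearts, the 2 angiotensin II groups of 4 arrays were examined for a single array apart from the other 3, which is 40 groups, and 4 were found. Chance gives about 1 in 20 groups. Rab4a read 5.88 on C57Bl/6J angiotensin II 1, below 6.59 to 6.70 on the other 3 arrays of its group, and Xbp1 read 11.15 on the same array, above 10.76 to 10.81. That array lay over 1 log2 unit from each of the other 3 in 196 genes. Rell1 read 6.80 on C57Bl/6J angiotensin II 3, below 7.27 to 7.30. Hsd17b7 read 9.81 on C57Bl/6N angiotensin II 3, below 9.93 to 9.94. The sham groups hold 3 arrays each and were not examined this way. No cause was tested.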

How the results depend on the processing

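Rab4a passed in each of the 27 alternative settings, with a log2 difference of 0.73 to 1.79; the low end comes from background inferred from all rows. Entpd4 kept its direction in all 27 and passed in 12 of 13 other settings and in 6 of 14 in which 1 array was left out. In place of 2 genes (1 higher, 1 lower), the 6 sham arrays alone gave 1 (1 higher, 0 lower). Background inferred from all rows gave 4 (3 higher, 1 lower), with Hsd17b7 and Miga2 added. Array weights gave 30 (16 higher, 14 lower), 12 of the 20 named genes not counting Rab4a and Entpd4 among them. Leaving out 1 array at a time gave 1 to 4 genes, 1 to 3 higher and 0 to 1 lower. The number at an unadjusted p under 0.05 was 717, 1220 with no filter, 1296 with array weights, and 404 without C57Bl/6J sham 1 to 1125 without C57Bl/6J angiotensin II 1. Both genes passed in the same direction under angiotensin II wherever that contrast could be computed. The second deposited table and the setting with no background step are 1 scaling.

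Genes far from the threshold changed sign in a few settings, and the cause was not tested. Thy1 was -0.011 with median scaling and ran from -0.36 to 0.30 with 1 array left out, and Prdx3 was -0.0034 with array weights and ran from -0.029 to 0.18. Over the same leave-outs Nppb ran from -0.23 to 0.68, Idh2 from -0.0074 to 0.23, Krt8 from -0.0049 to 0.28 and Upk3b from -0.056 to 0.41. No paired analysis was possible because the labels give no shared replicate numbers. A block on chip was not run, since the file headers name no chip.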

Other observations

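The 15 tested MHC genes of antigen presentation had a median of -0.22 in sham hearts, with 14 of the 15 below 0, and none passed the limma test over all genes. At an unadjusted limma p under 0.05, 4.2% of all genes were higher and 3.42% lower. Of the MHC genes 0 were higher and 2 lower, H2-T23 (-0.41 ± 0.14), a non-classical class I gene, and H2-DMb1 (-0.47 ± 0.20), which loads peptide on class II molecules. C57Bl/6J sham 1 had a list median of 0.44, against -0.03 and 0.03 on the other C57Bl/6J arrays and -0.26, -0.14 and -0.06 in C57Bl/6N. Without that array the median was -0.079 and 1 gene was lower at that level, where 404 of all 9408 genes lay in either direction. Without C57Bl/6J sham 2 the median was -0.34. Under angiotensin II, 6 of the 15 were higher in C57Bl/6N at an adjusted p under 0.05 and 0 lower, and the median was 0.15. Of all genes, 5.46% were higher and 3.78% lower there.

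Dbh, which makes noradrenaline in sympathetic nerve endings, read 7.59, 7.46 and 7.21 in C57Bl/6J and 6.34, 7.03 and 6.31 in C57Bl/6N (-0.86 ± 0.23, adjusted p = 0.313 in limma). Chrm2, the muscarinic receptor gene of heart muscle, read 6.36, 7.38 and 6.99 against 7.71, 8.31 and 7.53 (0.94 ± 0.23, adjusted p = 0.242). Neither overlapped between substrains, and 7 nerve and Schwann cell markers had a median of -0.04.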
